A study of Mus musculus with 4 samples.

Results

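The Hist1 histone gene cluster on chromosome 13 was described through the array probes that lie in it on the mm9 build, in chr13:21700000-22150000 and chr13:23520000-23880000. These windows held 134 probes in 39 runs, a run being a stretch of probes with gaps of at most 1000 bp, out of 85850 autosomal probes in 14178 runs. The window that starts at 21700000 held 56 probes in 16 runs and the window that starts at 23520000 held 78 probes in 23 runs. The members were chosen by position alone, and no measured value entered the rule, which was set with earlier results of these data known.

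Relative DNA methylation was measured in whole brains of mouse offspring on postnatal day 1, with the strain given as C57BL/6 in the strain label and as C57BL/6J for the dams in the growth protocol. The dams had been given vehicle (Sham) or titanium dioxide nanoparticles at 100 ug per mouse (TiO2-H) into the trachea, on gestational day 14 according to the sample descriptions and on day 10.5 according to the treatment protocol. For each group and sex 1 DNA pool was made, from 2 offspring of each of 5 dams for Sham and of each of 6 dams for TiO2-H. Each pool was hybridised once, so no group had a replicate, and precision is limited by the number of arrays. DNA bound by a 5-methylcytosine antibody (MeDIP, immunoprecipitation of methylated DNA) carried the red dye Cy5 and the input DNA carried the green dye Cy3. Both male labels shared a slide, as did both female labels, so slide and sex label cannot be told apart. The same is true of the exposure and the array's position on its slide. Values below are given in array order, which is Sham first (male, then female) and TiO2-H second (male label, then female label). X-linked input signal relative to autosomes was -0.75, 0.03, 0.03 and -0.74 (log2) in array order. Male DNA, with a single X chromosome, gives the lower value, so for both TiO2-H arrays the input contradicted the labelled sex, and the sex given for them is the label's. The probes give no check of the tissue or of the exposure.

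The Hist1 cluster carries most of the replication-dependent histone genes of the mouse. They encode the core histones H2A, H2B, H3 and H4, around which DNA is wound in the nucleosome, and the linker histone H1, which binds the DNA between nucleosomes. These genes are short, have no introns, are transcribed mainly while DNA is being copied, and many have CpG-rich promoters, which in most tissues are free of methylation. In MeDIP, a region with little 5-methylcytosine gives little Cy5 signal, and so does a probe that binds any DNA poorly, which is why the input signal of the same spot was read beside it.

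The gene content of the windows was taken from RefSeq's order of genes on chromosome 13, in which the stretches around the named probes hold 52 protein-coding histone genes. They comprise 6 H1, 12 H2A, 14 H2B, 9 H3 and 11 H4 genes. The same stretches hold genes that are no histones, among them Pom121l2, Prss16 (a serine protease of the thymus), Zfp184, Zfp322a, Abt1, Btn1a1, Btn2a2 and Hfe. They also hold tRNA genes, 23 before Pom121l2, 2 from there to Prss16, 38 after Prss16 and 14 before Hist1h3g. No coordinates were converted, so some of these genes may lie outside the windows. A run without a named probe need not lie at a histone gene. The array files name no genes. In the part of the study's own probe annotation that could be read, 5 of the 134 probes were named. These were at 22073387-22073431 and 22073468-22073512 (both Pom121l2, run 11 in order along the chromosome), 22098904-22098948 (Prss16, run 12), 23627101-23627153 (Hist1h3g, now H3c8, run 20) and 23830758-23830802 (Hist1h1c, now H1f2, run 33). So 2 of the 5 named probes lay at histone genes and 3 did not, and the counts of detected probes are also given without runs 11 and 12. The other runs were placed only by their order between these probes.

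Promoters of 3 of the genes named by a probe are shown, because they show the density of CG pairs, whose methylation MeDIP reads, at 2 histone genes and at a neighbour that is none. They are from RefSeq, build GRCm38.p6, on the plus strand, and cover the 250 bases before the gene start, with each CG pair in capitals. Hist1h3g lies at chr13:23535168-23535417 and has 15 CG pairs, Hist1h1c at chr13:23738557-23738806 with 17, and Pom121l2 at chr13:21980931-21981180 with 2. The probes are placed on another build, so no position of a probe within these stretches is given. The study's annotation places the probes at 22073468 (Pom121l2), 22098904 (Prss16) and 23830758 (Hist1h1c) inside the gene. The bases before the start therefore need not be what these probes read.
Hist1h3g: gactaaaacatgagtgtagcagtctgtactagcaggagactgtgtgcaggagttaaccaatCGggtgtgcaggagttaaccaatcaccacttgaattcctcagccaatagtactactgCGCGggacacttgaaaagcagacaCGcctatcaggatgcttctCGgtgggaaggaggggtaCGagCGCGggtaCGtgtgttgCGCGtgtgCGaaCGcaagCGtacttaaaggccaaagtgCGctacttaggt
Hist1h1c: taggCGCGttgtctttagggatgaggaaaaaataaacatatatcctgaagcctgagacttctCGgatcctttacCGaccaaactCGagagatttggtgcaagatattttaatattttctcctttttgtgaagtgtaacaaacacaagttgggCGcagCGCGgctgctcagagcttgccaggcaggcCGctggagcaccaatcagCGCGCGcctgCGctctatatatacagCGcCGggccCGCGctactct
Pom121l2: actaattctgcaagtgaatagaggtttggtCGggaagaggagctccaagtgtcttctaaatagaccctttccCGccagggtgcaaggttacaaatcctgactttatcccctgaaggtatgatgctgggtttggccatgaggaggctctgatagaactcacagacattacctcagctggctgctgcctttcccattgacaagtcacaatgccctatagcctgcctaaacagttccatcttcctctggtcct

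A RefSeq promoter window (250 bases before to 50 bases after the start, 300 in all) was found for 49 of the 52 histone genes. These windows held a median of 11 CG pairs, from 3 to 27, against a median of 7 over 27026 genes with a window. Their median content of G and C was lower, at 45.3% against 52.7%. By class the median number of CG pairs was 13.5 for H1, 13 for H4, 11 for H2B, 10.5 for H2A and 8 for H3 genes. Searched on both strands, CCAAT was found in 41 of the 49 windows (83.7%, against 37.9% of all windows), TATAAA in 29 (59.2%, against 14.2%) and ATTTGCAT in 8 (16.3%, against 1.75%). None of these motifs contains another. CCAAT was in every window of the H1 (6), H2A (12), H2B (13) and H3 (7) genes and in 3 of 11 H4 windows, and ATTTGCAT was found in 4 H2A and 4 H2B windows and in no window of the other classes. Many H2A and H2B genes are divergent neighbours that share the bases between them, so these counts are not over separate stretches, and a match is a description of letters only. The 250 bases before the start were identical at every position between Hist1h2bq and Hist1h2br, and the next most alike pair shared 42% of positions.

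The MeDIP channel was near its background over most of the cluster. Cy5 was well above background (the scanner software's flag for a spot that exceeds its local background) at 14, 20, 9 and 11 of the 134 probes in array order. These were 10.4%, 14.9%, 6.72% and 8.21% of the probes, against 51.3%, 58.9%, 24.7% and 33.0% of the other autosomal probes. Each 95% Wilson interval of the cluster lay below the value of the other autosomal probes on its array. The lowest was 3.57% to 12.3% for TiO2-H male and the highest 9.87% to 21.9% for Sham female. Probes elsewhere on chromosome 13 were close to the rest of the autosomes, at 50.6%, 56.7%, 23.2% and 31.4%. The share of the cluster was lower than that of the other autosomal probes on 4 of 4 arrays, with a mean difference of -31.9 percentage points, and an exact two-sided sign-flip permutation test over the arrays gave p = 0.125, the smallest that 4 arrays allow. The intervals cover the counting of probes only, and neighbouring probes share DNA fragments.

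**Figure D1:**
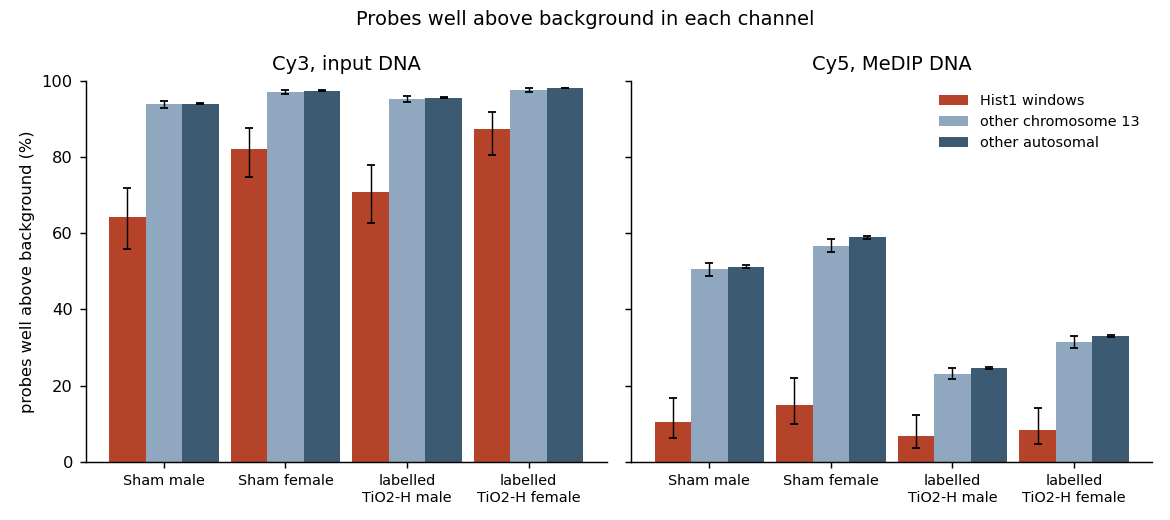
Share of probes (%) well above background in the input channel Cy3 (left) and the MeDIP channel Cy5 (right) on each array, for the 134 probes of the Hist1 windows, other chromosome 13 probes and other autosomal probes; error bars are 95% Wilson intervals. The Hist1 bars are the lowest on each array in both channels, with Cy5 between 6.72% and 14.9%.

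Taken over arrays, 111 of the 134 probes (82.8%) had no detected Cy5 signal on any array, against 35.6% of the other autosomal probes. Signal was seen on at least 1 array at 23 probes and on all 4 arrays at 9 (6.72%, against 24.0%). By run, 28 of the 39 runs (71.8%) had no probe with detected Cy5 on any array, against 458 of 14139 other runs (3.24%). The runs of the cluster were also shorter, with a median of 3 probes against 5. Among runs of at least 3 probes, the counts were 15 of 25 (60%) against 235 of 13066 (1.80%). Of the 11 probes detected on a single array, 8 were detected on Sham female, 2 on Sham male, 1 on TiO2-H female and 0 on TiO2-H male. Sham female also had the highest share of detected Cy5 among the other autosomal probes (58.9%). The same split was not counted over those probes, so it is not shown to be particular to the cluster.

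The few signals were not spread evenly along the cluster. The runs that carry Pom121l2 and Prss16, with 8 and 9 probes, held 10 of the 23 probes with any Cy5 signal, so 10 of their 17 probes (58.8%) were detected on at least 1 array. Their input was also brighter, with a median background-subtracted Cy3 of 85.0, 76.0, 103.4 and 104.3 units in array order, against 13.5 to 41.9 in the other stretches between named genes. Probes of 60 bases, which were dim on these arrays, made up 5.88% of them against 23.1% to 42.9%, and the part of input and probe length in this unevenness was not tested. In the 10 runs before Pom121l2, where RefSeq places 18 histone genes, 23 tRNA genes and Zfp184, 1 of 25 probes was detected. This probe lay in the last of these runs (22036987-22037250), which no named probe ties to a gene. That run stood apart from the run before it, which ended at 21879343, and from the Pom121l2 run, which starts at 22072992. In the 4 runs after Prss16 it was 0 of 14 probes. In the other window, 2 of 13 probes before Hist1h3g were detected, 4 of 38 from Hist1h3g up to Hist1h1c and 6 of 27 from Hist1h1c onwards. Both detected probes before Hist1h3g were in a single run (23555984-23556374), which RefSeq's order does not tie to a named gene here. Without the Pom121l2 and Prss16 runs, a subset chosen after the values were seen, Cy5 was detected at 5.13%, 9.40%, 3.42% and 4.27% of the 117 remaining probes (array order), and 104 of them were detected on no array.

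**Figure D2:**
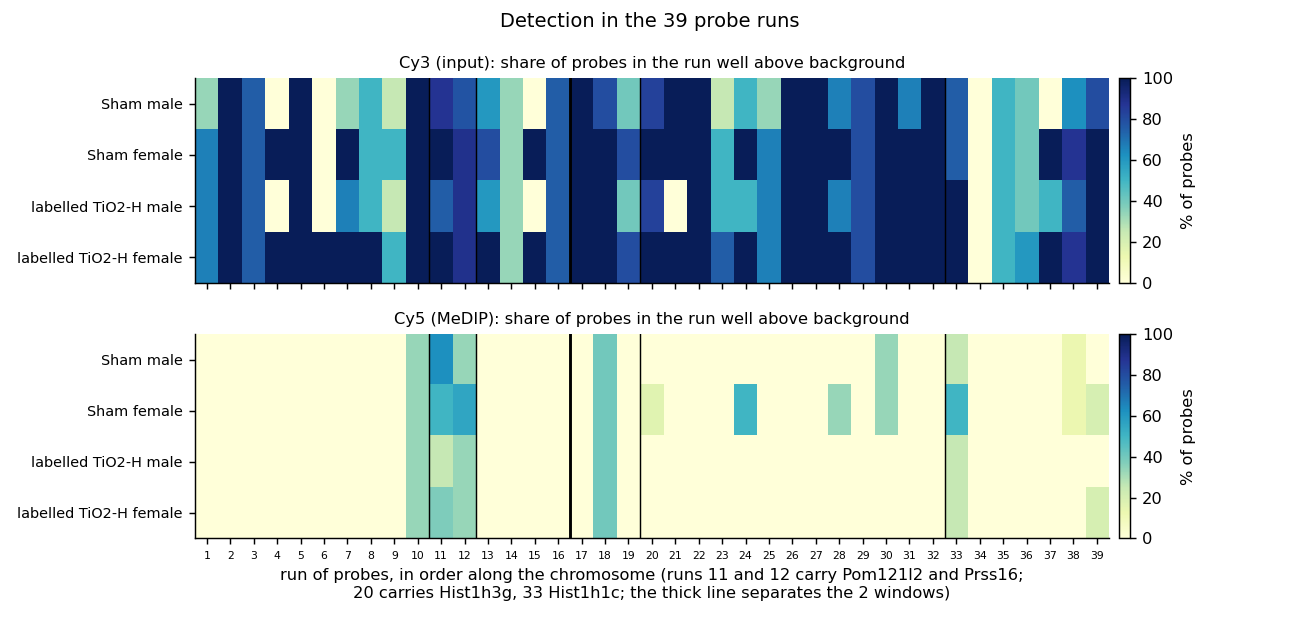
Share of the probes in each of the 39 runs (columns, in order along the chromosome) that were well above background on each array (rows), for input Cy3 (top) and MeDIP Cy5 (bottom); thin lines separate the stretches set by the named genes. Most cells of the Cy3 panel are dark, while in the Cy5 panel 28 runs are empty on every array and runs 11 and 12, with Pom121l2 and Prss16, hold 10 of the 23 detected probes.

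The input signal of the cluster was low as well. Cy3 was well above background at 64.2%, 82.1%, 70.9% and 87.3% of its probes in array order, against 94.1%, 97.4%, 95.7% and 98.2% of the other autosomal probes. This difference, too, had the same direction on 4 of 4 arrays (exact two-sided sign-flip permutation test, p = 0.125). The median background-subtracted Cy3 signal was 18.8, 30.1, 27.9 and 40.1 intensity units, against 81.9, 87.7, 102 and 106 elsewhere. The part of dim input in the low share of detected Cy5 was not tested. The comparisons by probe length and input signal that follow are descriptive.

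The probes of the cluster were built differently from the rest of the array. Their median length was 53.5 bases against 45, and 39 of them (29.1%) had 60 bases, the longest length on the array, against 3.08% elsewhere. Probes of 60 bases were dim throughout the array, with Cy5 detected at 0.682% to 7.89% of those on other autosomes and at 0 of 39 in the cluster on each array. Of the 23 probes with any Cy5 signal, 21 were among the 47 of 45 to 47 bases and 2 among the 48 of 48 to 59 bases. Among probes of 45 bases, for which Cy3 was well above background at 97.3% to 100% of the 37 in the cluster, Cy5 was detected at 32.4%, 43.2%, 21.6% and 27.0% in array order. The other autosomal probes of 45 bases stood at 64.6%, 68.6%, 31.6% and 41.7%. With the Pom121l2 and Prss16 runs left out, 26 probes of 45 bases remained, with 19.2%, 26.9%, 11.5% and 15.4% detected. The difference over all probes of 45 bases had the same direction on 4 of 4 arrays, and so had the difference without the Pom121l2 and Prss16 runs. The limit to 45 bases was chosen after the values were seen. Both runs held 10 of the 23 detected probes together and were also left out after the values were seen. No test is drawn from either difference.

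Within broad ranges of input signal, chosen after the values were seen, the cluster had a lower share of detected Cy5 than the rest of the array among probes of 30 to 100 units. Input signal and probe length were not matched within a range, and detection of the other probes rose with input from range to range. With background-subtracted Cy3 of 30 to 100 units, Cy5 was detected at 5 of 35 probes of the cluster on Sham male (14.3%, against 43.1% of other autosomal probes), 4 of 50 on Sham female (8%, against 39.2%), 1 of 40 on TiO2-H male (2.5%, against 8.47%) and 3 of 59 on TiO2-H female (5.09%, against 15.8%). The Wilson intervals, which cover the counting of probes only, left out the value of the other probes on both Sham arrays and on TiO2-H female (1.74% to 13.9%). On TiO2-H male the interval (0.443% to 12.9%) held it. With Cy3 of 100 to 300 units, the shares were 60%, 93.8%, 38.1% and 34.8% of 15, 16, 21 and 23 probes, against 76.3%, 93.3%, 36.5% and 44.8%, each within its interval. The Pom121l2 and Prss16 runs held many of these bright probes. Without both runs, left out after the values were seen, the shares at 100 to 300 units were 37.5%, 88.9%, 25% and 21.4% of 8, 9, 12 and 14 probes. On Sham male this was 3 of 8 probes, with an interval of 13.7% to 69.4%. No test is drawn from these ranges or from this subset, since the intervals cover only the counting of neighbouring probes. Below 30 units no probe of the cluster was detected on any array, against 0 to 6.29% of the other autosomal probes, which lay within the intervals of the cluster.

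**Figure D3:**
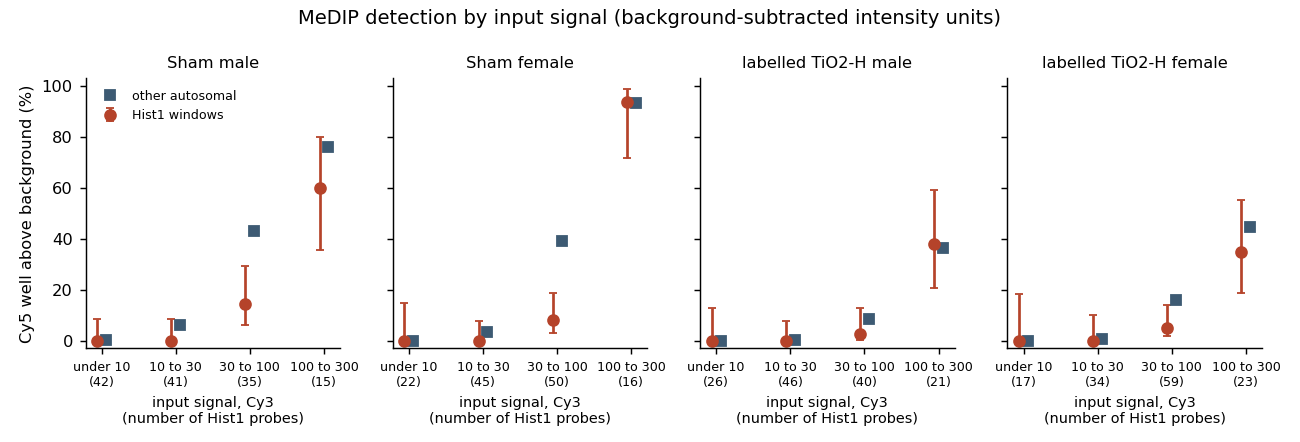
Share of probes (%) with MeDIP signal (Cy5) well above background, by background-subtracted input signal (Cy3, intensity units), on each array for the Hist1 windows (circles, 95% Wilson intervals, number of probes in brackets) and other autosomal probes (squares); the single probe of 300 units or more is left out. At 30 to 100 units the circles lie below the squares, and at 100 to 300 units the squares fall within the intervals.

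The centred log2 ratio of MeDIP over input, which was 0 at the median autosomal probe of each array, gave the cluster no single order across arrays. Its median over the 134 probes was 0.18, -0.29, 0.69 and 0.25 in array order. The share of probes above the median of the other autosomal probes was 55.2%, 38.1%, 72.4% and 56.0%, so it was below 50% on Sham female and above it on the other arrays. The 95% Wilson intervals were 46.8% to 63.4%, 30.3% to 46.5%, 64.3% to 79.3% and 47.5% to 64.1%. These ratios moved with the input. Each probe whose Cy3 was not well above background (48, 24, 39 and 17 probes) had a ratio above 0 on its array, with medians of 1.56, 1.67, 2.40 and 2.85. Among probes with Cy3 well above background the medians were -0.53, -0.50, 0.25 and -0.01. With detected input also required of the other autosomal probes, 37.2%, 24.5%, 63.2% and 51.3% of the cluster lay above their median. These shares were below 50% on both Sham arrays and above it on the TiO2-H arrays. Most of these ratios rest on Cy5 at background. Among such probes of the cluster, Cy5 was detected at 14 of 86, 20 of 110, 9 of 95 and 11 of 117. Among such other autosomal probes it was detected at 54.5%, 60.5%, 25.8% and 33.6%. A difference by exposure was not tested here. The scanner software had set its own log ratio to 0 for 29, 20, 52 and 26 probes of the cluster, or 21.6%, 14.9%, 38.8% and 19.4%, against 2.88%, 1.95%, 7.81% and 2.79% of the other autosomal probes.

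**Figure D4:**
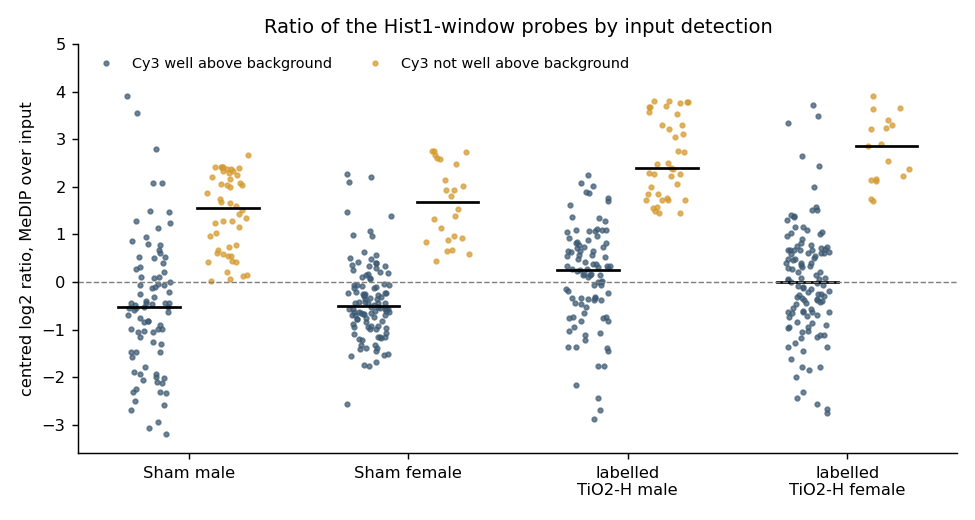
Centred log2 ratio of MeDIP over input for each of the 134 probes on each array, split by whether Cy3 was well above background; black lines are medians and the dashed line is the autosomal median. All probes without detected input lie above 0, with medians from 1.56 to 2.85.

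The runs with the highest ratios had no detected MeDIP signal. Ranked by the mean over arrays of the run median, among runs of at least 3 probes, the 5 highest were at 22132818-22133405 (mean 2.44), 21878652-21879343 (1.71), 23646715-23647514 (1.27), 23842874-23844764 (1.21) and 23622881-23623802 (0.72). No probe of these 5 runs had detected Cy5 on any array. In the first of them, 1 of 3 probes had Cy3 well above background on each array. The 5 lowest were at 22142823-22143388 (-0.70), 21813659-21813972 (-0.46), 23852673-23854295 (-0.36), 23625734-23627772 (-0.35) and 23714277-23714593 (-0.31), the fourth of which carries Hist1h3g, which encodes a histone H3. In the runs at the low end most probes had detected input, for example 3 of 4 on each array in the lowest run. The longest run of the first window was that of Prss16, with medians of 0.22, 0.20, 0.81 and -0.07 in its 9 probes (array order). The longest of the other window was 23852673-23854295, with -0.32, -0.56, 0.02 and -0.60 in its 8 probes.

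Single probes were ranked among those with detected input on all arrays, which 84 of the 134 met (62.7%, against 93.8% of other autosomal probes). The highest mean ratio among them was at 23556264-23556308, with 3.56 on Sham male, 2.20 on Sham female, 2.08 on TiO2-H male and 3.72 on TiO2-H female. Next came a probe of the Prss16 run at 22097925-22097969, with 3.90, 2.10, 1.87 and 3.35. The probe named for Prss16 itself followed, with 2.09, 2.27, 2.24 and 3.48. These 3 probes were high and detected in Cy5 on every array. The 3 lowest were at 23654270-23654316 (-2.95, -0.45, -2.88 and -2.76), 23855470-23855521 (-3.06, -0.12, -2.69 and -2.30) and 23831258-23831302 (-2.12, -0.81, -2.44 and -2.67). The last of these lies in the Hist1h1c run. In all 3 the input was bright, between 166 and 417 units, and Cy5 was detected on Sham female only, where the ratio was also the highest of the 4 arrays. On the other arrays these ratios rest on Cy5 at background and have no exact size.

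Of the 2 named histone probes, 1 had detected MeDIP signal on all arrays. The Hist1h1c probe at 23830758-23830802, for the linker histone H1.2, had ratios of 2.07 on Sham male, 1.47 on Sham female, 2.01 on TiO2-H male and 2.44 on TiO2-H female, with Cy5 detected on all 4 arrays and Cy3 at 50.2, 42.7, 67.6 and 53.8 units. It was the only probe placed from Hist1h3g onwards that was detected in Cy5 on all arrays, and the study's annotation places it inside the gene. The Hist1h3g probe had ratios of -3.19, -0.36, -1.39 and -2.56, with Cy3 at 121.5, 187, 152 and 207.5 units and Cy5 detected on Sham female only, so the other 3 ratios rest on Cy5 at background. Both Pom121l2 probes were detected in Cy5 on all arrays. The ratios were 2.79, 1.39, 1.77 and 2.64 at 22073387 and 1.13, 0.98, 1.07 and 1.10 at 22073468, so the first varied between arrays and the second hardly did.

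Exposure was then compared within each sex label by fold, with a rise at 1.5 or more and a fall at 0.67 or less. A probe counted as measured with Cy3 well above background on both arrays, Cy5 on at least 1 of them and a scanner p-value of the log ratio under 0.05 on at least 1 of them. With 1 array a group these folds have no test. In the male comparison (TiO2-H over Sham) 12 of 134 probes were measured (8.96%, against 40.6% of other autosomal probes), of which 0 rose and 5 fell, against 1 rise and 2 falls after loess. Over all autosomal probes measured, 3.14% rose and 56% fell. The measured falls with Cy5 on both arrays were at 22097925 (3.90 on Sham male and 1.87 on TiO2-H male), 23556264 (3.56 and 2.08) and 22073387 at Pom121l2 (2.79 and 1.77). At 22073199 and 23714277 Cy5 was not well above background on TiO2-H male, and these probes were at least 1.77-fold and 1.35-fold lower there.

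In the female comparison 17 probes were measured, of which 6 rose and 8 fell, beside 28.8% rises and 36.3% falls over all autosomal probes measured. The 6 rises depended on the scaling: 0 rises were left when the arrays were brought to a common spread or quantile-normalized, and 1 after loess or normexp. They comprised 22037070 in the run that precedes the Pom121l2 run, 22073387 in the Pom121l2 run, and 22097925 and 22098904 in the Prss16 run. The others were 23556264 and the Hist1h1c probe (2.44 on TiO2-H female and 1.47 on Sham female). All 8 falls were probes whose Cy5 was not well above background on TiO2-H female. Against the lowest detected Cy5 signal on that array, 2 of them kept their direction, 23855470 at least 2.71-fold lower and 23654270 at least 1.52-fold lower, and for the other 6, with the Hist1h3g probe among them, no fold can be given.

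Arrays of like exposure also differed from each other. Sham female over Sham male measured 21 probes of the cluster, of which 7 rose and 7 fell (32% and 33% over all autosomal probes measured). TiO2-H female over TiO2-H male measured 8, of which 6 rose and 0 fell (63.7% and 1.02%). When the labelled sexes of the TiO2-H pools were exchanged, TiO2-H female over Sham male measured 13 probes with 1 rise and 1 fall (10.3% and 22.1%), and TiO2-H male over Sham female measured 16 with 0 rises and 6 falls (3.36% and 46.2%). The counts of the cluster are too small to be set apart from these backgrounds.

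Of 9 probes measured in both exposure comparisons, 0 fell in both and 0 rose in both, beside 10.6% and 0.864% of all autosomal probes measured in both. The 3 probes at 22073387, 22097925 and 23556264 fell under the male labels and rose under the female labels (27.8% of all autosomal probes changed in opposite directions), and 0 did so under common spread, quantile, loess or normexp. The runs with at least 3 measured probes were those of Pom121l2 and Prss16 in both comparisons. The Pom121l2 run had a median log2 fold of -0.12 for the male labels and 0.12 for the female labels, and the Prss16 run -0.52 and 0.43. Neither run passed 1.5-fold. The positive female values did not hold under other scaling: without centring, at a common spread, and after quantile, loess or normexp they were -0.51 to -0.23 for Pom121l2 and -0.23 to -0.06 for Prss16. With Cy5 required on both arrays the female value of the Prss16 run was 1.21, which is past 1.5-fold.

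**Figure D5:**
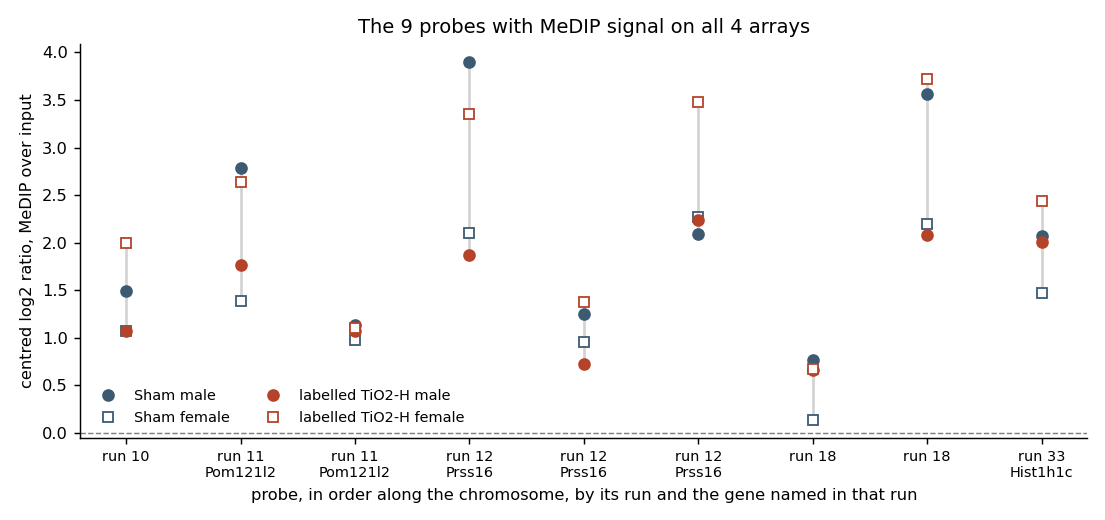
Centred log2 ratio of MeDIP over input on each array (filled circles for male labels, open squares for female labels, blue for Sham, red for TiO2-H) for the 9 probes whose Cy5 was well above background on all 4 arrays, in order along the chromosome. All values lie above 0, and at 8 of 9 probes Sham male and TiO2-H female are the 2 highest.

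A fit of both sex labels together, 2 TiO2-H against 2 Sham arrays, was made with limma over 39861 autosomal probes, of which 12 were in the cluster. Of these 0 passed an adjusted p of 0.05 in limma (lowest adjusted p of 1) and 0 had an unadjusted p under 0.05, where over all probes 0.0928% were called as falls, 0 as rises, and 5.45% had an unadjusted p under 0.05. The fitted differences (TiO2-H minus Sham, log2) were positive for 7 and negative for 5 probes, with a median of 0.02 against -0.13 over all probes. They ran from -0.39 (SE 0.67) at 22097925 to 0.68 (SE 0.57) at the Prss16 probe, and the Hist1h1c probe stood at 0.45 (SE 0.54). With 2 arrays an arm, a count of 0 does not show that the exposures did not differ. In simulated data the fit recovered 0 of 200 probes changed by a log2 of 2.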

How the data were processed

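Pooled brain DNA was hybridised to 4 Agilent mouse CpG island arrays with 2 colours, without a dye swap. Per the file headers, scanning used Agilent Feature Extraction 10.7.3.1, with positions on mm9. The deposited processed signals are linear intensity values, background-subtracted, detrended and scaled by dye. The deposited ratios are log10 values of Cy5 over Cy3, and the deposited p-value is the scanner software's for a single spot. The series table held the same log10 values (largest difference 5.0e-10).

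From these, the log2 of processed Cy5 over Cy3 was computed for the 88737 probes that are no controls and centred on the autosomal median of each array. None of the 134 probes was flagged or saturated. The limma fit (limma 3.58.1, R 4.3.3) used autosomal probes detected in Cy3 on 4 arrays and in Cy5 on 2 or more, with Benjamini-Hochberg adjustment, and was tested on simulated data. Of 200 simulated changed probes it recovered 0 at a log2 change of 1, 0 at 2 and 141 at 3, the last with 8 false calls. Where the dimmer array had no detected Cy5, its signal was raised to the lowest detected Cy5 signal of that array, and the fold is given as a bound where this kept the direction. Named runs were the 5 highest and 5 lowest by mean level, the longest of each window, and runs past 1.5-fold in both comparisons, of which there were 0. Named probes were the 3 highest and 3 lowest with detected input. Other probes named, including those with a gene name, were chosen after their values were seen. RefSeq names came from assembly GRCm38.p6, and no coordinates were converted. The members and lists were chosen with earlier results of these data known. The alternatives comprised other centring, scaling, background correction and filters, and crossed sex labels.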

Additional observations from a re-analysis of the deposited data

Results flagged for a closer look

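In 3 probes the exposure comparisons of the 2 sex labels went opposite ways past 1.5-fold. The female minus the male log2 fold was 2.28 at 22073387 in the Pom121l2 run, 3.27 at 22097925 in the Prss16 run and 3.0 at 23556264. The medians of the Pom121l2 run and of the Prss16 run also had opposite signs, without passing 1.5-fold, and their differences were 0.24 and 0.95. These opposite signs were lost for the Prss16 run without centring, at a common spread and after quantile, loess or normexp, where the female median was -0.23 to -0.06 and the male median also negative. For the Pom121l2 run the female median was -0.51 to -0.23 under these settings, with a negative male median except after loess (0.22). With 1 array a group these differences were not tested. The same probes differed between the Sham arrays by -1.41, -1.79 and -1.36 (Sham female minus Sham male), and with the labelled sexes of the TiO2-H pools exchanged the exposure folds were -0.15, -0.55 and 0.16 against Sham male and 0.39, -0.23 and -0.12 against Sham female. At a common spread the male and female folds were -0.57 and 0.23 at 22073387, -1.40 and -0.23 at 22097925, and -0.91 and -0.06 at 23556264.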

How the results depend on the processing

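The share of probes above the median of the other autosomal probes moved with background correction, loess and a filter on input. With normexp background correction it was 80.6% on Sham male, 83.6% on TiO2-H male and 82.1% on TiO2-H female, after loess it was 60.4% on TiO2-H male, and with Cy3 well above background required of the cluster and of the other probes it was 37.2% on Sham male, 24.5% on Sham female and 63.2% on TiO2-H male. The share with detected Cy5, for which the alternatives were chosen after seeing the data, was 32.4%, 43.2%, 21.6% and 27.0% for probes of 45 bases (array order) and 5.1%, 9.4%, 3.4% and 4.3% without the Pom121l2 and Prss16 runs. The count past 1.5-fold in the male comparison, 5 in the report, was 3 after loess, after normexp and with Cy5 on both arrays, and 2 with the labels crossed. Of these 1 rose and 2 fell after loess, 1 rose and 1 fell with the labels crossed, and quantile normalization gave 1 rise and 4 falls. In the female comparison, 14 in the report, it was 6 under common spread, quantile, loess and normexp, with Cy5 on both arrays and with crossed labels. The direction turned with these choices: of those 6, 0, 0, 1 and 1 rose under the first 4 settings, 6 with Cy5 on both arrays and 0 with crossed labels. With Cy5 on both arrays 1 run, that of Prss16, passed 1.5-fold in the female comparison (log2 fold 1.21). The cause of these changes was not tested. The limma count was 0 in each alternative, including the replicate block (slide and sex label as a block, 0 calls) and leaving out each array in turn (0 to 0 calls, with the lone array of an arm assumed to vary like the other arm). In so small a design these counts say nothing about stability. The block is a sex label that the input of both TiO2-H arrays contradicts. Signal over background limits what can be read: 111 of 134 probes had no detected MeDIP signal on any array.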

Other observations

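At 8 of the 9 probes detected in Cy5 on all 4 arrays, Sham male and TiO2-H female, the arrays with low X-linked input, both had higher centred ratios than Sham female and TiO2-H male. Among the other autosomal probes detected on all 4 arrays in both channels this held at 70.9% of 20582. The pattern was not stable to scaling, with 4 of 9 probes (48.0% of the others) without centring, 3 (39.5%) after quantile normalization, 2 (17.2%) after loess, 2 (19.2%) after normexp and 1 (22.0%) at a common spread. These arrays also had the widest spread of ratios, with a median absolute deviation of 1.08 and 1.04 (log2), against 0.60 for Sham female and 0.91 for TiO2-H male.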
